A study of Mus musculus with 9 samples.

Results

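The mRNAs of nucleoporins and nuclear transport receptors were followed among the RNAs crosslinked to the mRNA export protein Chtop. Genes were chosen by symbol only: the numbered nucleoporins, Ndc1, Pom121 and Tpr, the importins, transportins and exportins, Cse1l and the numbered Ran-binding proteins. The rule found 50 genes of the 22442 in the count tables, of which 11718 carried a symbol.

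The nuclear pore complex is a ring of nucleoporins in the nuclear envelope through which RNA and protein pass. Importins and transportins carry protein cargo in, exportins carry cargo out, and the small GTPase Ran releases or loads the cargo. Chtop belongs to the TREX complex, which hands spliced mRNA to the export receptor at the pore.

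N2a is a mouse neuroblastoma cell line, and 6 of the libraries came from N2a Flp-In rtTA lines that expressed FLAG-tagged Chtop cDNA with exon 5 (3 libraries) or without exon 5 (3 libraries). All lines received doxycycline at 2 µg/mL for 24 hours to switch on the cDNA and were crosslinked at 0.15 J/cm2 and 254 nm. In iCLIP, the crosslinked RNA is recovered with the protein, here with an anti-FLAG antibody, and sequenced. The 3 controls were size-matched inputs, lysate run on the gel without the antibody step, and no line was used for more than 1 of them. Input replicate 1 was lysate of cells expressing Chtop without exon 5, input replicate 2 of cells expressing it with exon 5, and for input replicate 3 the cells expressed FLAG-GFP. The Chtop recovered was thus the product of an induced, tagged cDNA.

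The immunoprecipitates held 624062 to 1844970 counts per library and the inputs 75504 to 173342, so 3 counts equalled 16.3 to 21.1 CPM in an input, where CPM are counts relative to library size after TMM scaling. The TMM factors were 0.775 to 0.893 in the immunoprecipitates and 1.06 to 1.88 in the inputs. Relative to library size alone, they raise the CPM of the immunoprecipitates and lower those of the inputs. Statements on overlap between libraries hold for this scaling. Of 16 neuroblastoma and neuronal markers, 11 were named in the tables and 8 were counted in every immunoprecipitate. Their summed level was 1766 to 2082 CPM with exon 5, 1272 to 1308 CPM without it and 726 to 1754 CPM in the inputs. Of 15 markers of immune, glial, endothelial, fibroblast, liver and epithelial cells, 7 were named and 3 (Alb, Col1a2 and Aldh1l1) were at 0. The named ones summed to at most 43.5 CPM in any immunoprecipitate and to 0 to 77.5 CPM in the inputs. Chtop itself had 247, 275 and 404 counts with exon 5, 148, 187 and 291 without it, and 76, 10 and 0 in the inputs. These counts are not scaled for library size. In CPM, input replicate 1 (456.5) was above every immunoprecipitate, and input replicates 2 (54.48) and 3 (0) were below every one.

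Together the 50 mRNAs took 1.17% ± 0.095 (SD, n = 3) of the counts with exon 5, 1.05% ± 0.0986 without exon 5 and 0.975% ± 0.032 in the inputs. Of the 50, 46 had a count in every immunoprecipitate. The inputs were much thinner: 17 of the 50 had a count in all 3 inputs, 16 had input counts in replicate 2 only, and 3 (Ipo13, Nupl2 and Nup210l) had none. Nup35, a small inner-ring nucleoporin, was below the count minimum, so 49 were tested on gene totals.

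The cytoplasmic face of the pore supplied the most abundant member. Ranbp2, the giant nucleoporin of the cytoplasmic filaments that binds Ran, was at 2186, 2424 and 2984 CPM with exon 5, 1382, 1916 and 1975 CPM without exon 5, and 799, 616 and 810 CPM in the inputs. All 6 immunoprecipitates lay above all 3 inputs after TMM scaling, and the isoforms did not overlap each other either. By library size alone, input replicate 3 (115 of 75504 counts) was above replicate 1 without exon 5 (752 of 624062). Ranbp2 ranked 29 of 12824 genes by mean CPM in the immunoprecipitates and 60 per kilobase of the parts with a length entry, and it alone made up 18.2% ± 3.59 of the members' counts with exon 5, 14.0% ± 3.18 without exon 5 and 11.5% ± 4.60 in the inputs. The gene lies at chr10:58446852-58494155 (mm10, assembly GRCm38.p6) and overlaps no other annotated gene. Against the inputs it was higher with exon 5 by a log2 fold change of 1.77 (SE 0.40, adjusted p = 0.0178, edgeR). Without exon 5 the log2 fold change was 1.25 (SE 0.39) and the adjusted p of 0.0565 missed the threshold of 0.05. The call with exon 5 was lost when any 1 of the 3 libraries with exon 5 was left out, under scaling by library size alone, with an offset for length and in a fit of only the groups compared, with adjusted p from 0.00653 to 0.132 over 17 alternatives.

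Other cytoplasmic-side nucleoporins were lower. Nup214, which anchors the export helicase at the pore, had 240, 311 and 276 CPM with exon 5, 388, 425 and 514 CPM without it and 24.0, 174 and 183 CPM in the inputs. The immunoprecipitates without exon 5 were all above those with it, which in turn were above the inputs after TMM scaling. By library size alone, input replicate 3 (26 of 75504 counts) was above every library with exon 5. Nup88, its partner, ran from 82.8 to 215 CPM over the 6 immunoprecipitates, and its input counts came from replicate 2 alone. Nupl2, a small nucleoporin of the same face, had 0, 28.5 and 140 CPM with exon 5 and 12.9 to 26.6 CPM without it, with no input counts.

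**Figure D1:**
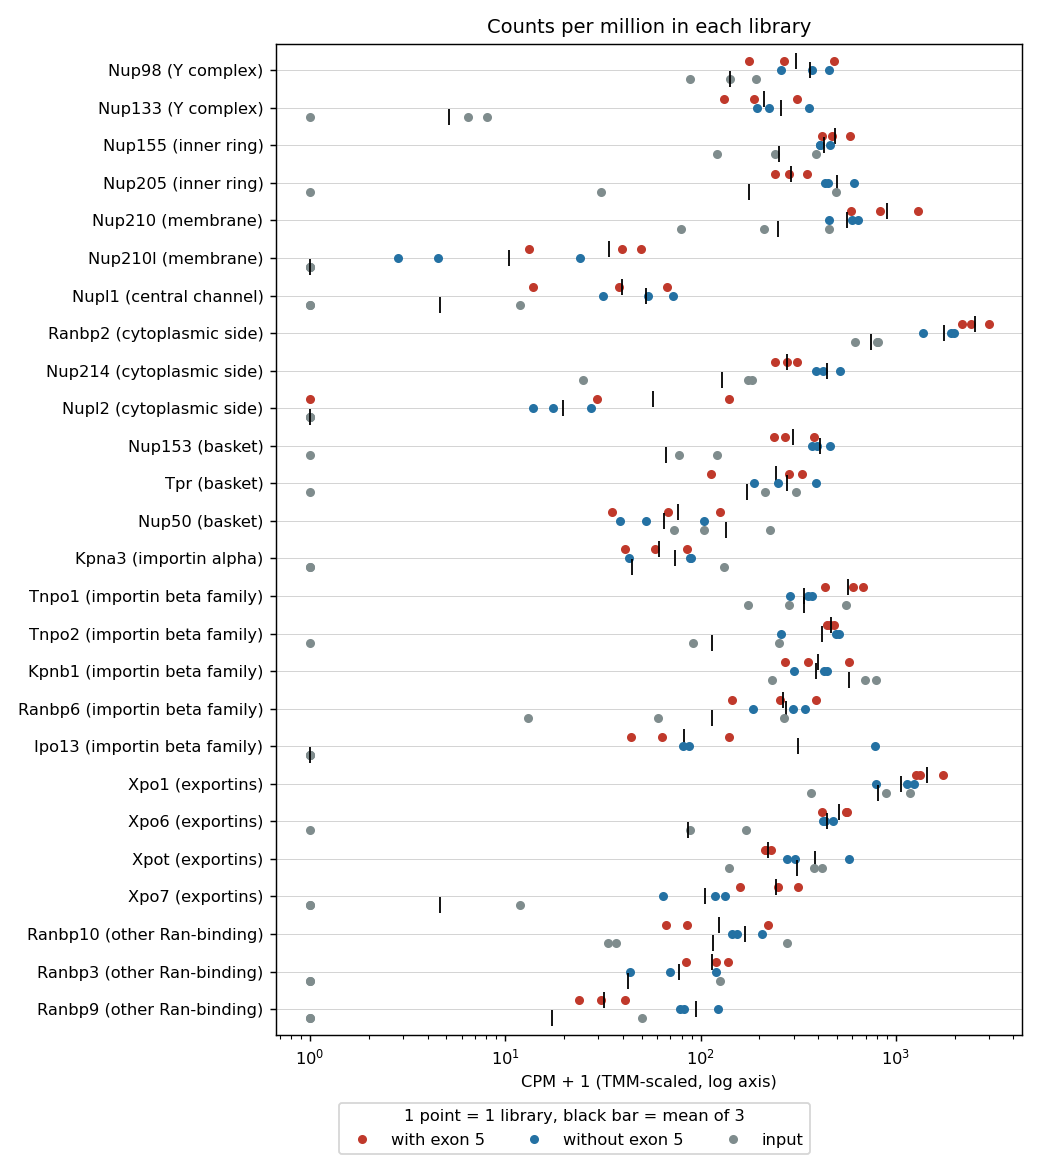
CPM plus 1 (horizontal log axis) of the 26 genes named by rule, in order of their place in transport. Each point is 1 library of the isoform with exon 5 (red), the isoform without exon 5 (blue) or the inputs (grey), and black bars are means of 3 libraries. Ranbp2 and Xpo1 stand farthest to the right, and points at 1 are libraries with no count.

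In the Y complex, the outer scaffold of the pore, Nup133 stood apart from the other members listed here. Nup133 (chr8:123897114-123949265) had 131, 312.5 and 186 CPM with exon 5 and 357, 223 and 193 CPM without exon 5, against 0, 5.45 and 7.05 CPM in the inputs. No immunoprecipitate came near the inputs, and the isoforms overlapped. The inputs held 2 counts in all, so the ratio of 50.8 with exon 5 had an exact 95% interval of 13.99 to 420.6, and that of 57.5 without exon 5 one of 15.85 to 475.7. These intervals cover counting error only. The edgeR log2 fold changes were 5.62 (SE 1.21, adjusted p = 0.0161) and 5.91 (SE 1.22, adjusted p = 0.0143). The first call was lost without replicate 2 or replicate 3 with exon 5, and the second without any 1 of the libraries of its own isoform, and both in a fit of only the groups compared. Over the 17 alternatives, adjusted p reached 0.119 and 0.0843.

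Nup160, of the same complex, had 154, 253 and 118 CPM with exon 5 and 145 to 232 CPM without it. Its inputs at 264, 153 and 0 CPM overlapped both. Nup85 had 300 CPM in input replicate 2 and none in the other inputs, against 35.7 to 298 CPM in the immunoprecipitates. Nup98, which carries the repeats that bind transport receptors, had 177 to 481 CPM in the immunoprecipitates and 87.2 to 192 CPM in the inputs. Its gene overlaps Art1 and Pgap2 and the strand handling of the counts is not known, so part of its counts could belong to them. Nup37 and Nup43 did not exceed 54.3 CPM in any library.

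The inner ring holds the scaffold together around the channel. Nup155 had 417, 582 and 470 CPM with exon 5 and 407 to 462 CPM without it. After TMM scaling these were above the inputs, at 120 to 390 CPM, in every library. By library size alone, input replicate 1 (65 of 111982 counts) was above every immunoprecipitate. Nup205 had 348.5, 238 and 284 CPM with exon 5 and 432, 449 and 607 CPM without exon 5. Its inputs spread from 0 to 496 CPM, wider than either isoform, and the log2 fold changes over input of 0.72 (SE 1.10) and 1.49 (SE 1.12) did not pass the test. Nup188 had 220 to 377 CPM in the immunoprecipitates and 109 to 186 CPM in the inputs, with no overlap after TMM scaling. By library size alone, input replicate 3 (26 of 75504 counts) was above every immunoprecipitate.

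Of the membrane nucleoporins, Nup210, which spans the nuclear envelope, was the most abundant. It had 587, 1291 and 829 CPM with exon 5, 594, 453 and 641.5 CPM without it and 78.1, 452 and 211 CPM in the inputs. Every immunoprecipitate exceeded every input after TMM scaling, by a margin of under 1 CPM at the closest, and the isoforms overlapped. By library size alone, input replicate 2 (83 of 173342 counts) was above replicate 2 without exon 5 (385 of 1005472). Its log2 fold changes over input were 1.86 (SE 0.68, adjusted p = 0.0864, edgeR) and 1.18 (SE 0.66, adjusted p = 0.257). Its relative Nup210l was far lower, at 48.6, 38.5 and 12.2 CPM with exon 5 and 1.84, 3.53 and 23.1 CPM without it. With no input count it was at least 1.79-fold higher than the inputs with exon 5, against a floor of 3 counts per input library. Without exon 5 it was under that floor.

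The basket, on the nuclear side of the pore, had no called member. Nup153 had 271, 382 and 237 CPM with exon 5 and 461, 370 and 393 CPM without it, all above the inputs at 120, 76.3 and 0 CPM. Its log2 fold changes of 2.16 (SE 0.99) and 2.62 (SE 1.00) had adjusted p of 0.161 and 0.104 (edgeR). Tpr, the coiled-coil protein of the basket filaments, overlapped its inputs, at 112 to 391 CPM against 0 to 306 CPM, and its gene overlaps Odr4 and Prg4. Nup50 was nominally below its inputs, at 34.3 to 124 CPM against 72.1 to 225 CPM. In the central channel, Nup62 had 123, 298 and 220 CPM with exon 5 and overlapped its inputs. Nupl1 had 12.9 to 71.7 CPM against 2 input counts, a ratio of 10.6 (95% interval 2.85 to 88.3) with exon 5 and 11.2 (3.02 to 93.1) without it, not called.

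Among the exportins, Xpo1, the receptor for proteins with a leucine-rich export signal, was the second member in abundance. It had 1739, 1330 and 1268 CPM with exon 5, 1244, 1146 and 793 CPM without it and 366, 894 and 1176 CPM in the inputs. After TMM scaling, the 3 libraries with exon 5 were above every other library, while those without it overlapped the inputs. By library size alone, input replicate 3 (167 of 75504 counts) was above every immunoprecipitate. Replicate 3 with exon 5 (1355 of 1328423) was then below replicate 1 without it (677 of 624062). Xpo1 ranked 87 by CPM and 82 per kilobase, and the log2 fold changes over input of 0.83 (SE 0.50, adjusted p = 0.288, edgeR) and 0.39 (SE 0.49, adjusted p = 0.66) were not called. Per kilobase of CDS alone, Xpo1 was at 388 ± 58.9 CPM (SD, n = 3) with exon 5 and 263 ± 48.2 without it, and Ranbp2 at 276 ± 44.7 and 192 ± 35.7. Over the parts with a length entry, which for Ranbp2 is the CDS only, the order was the other way, at 208 for Xpo1 and 234 for Ranbp2.

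Xpo7 (chr14:70662126-70770864), an exportin with broad cargo, was the exportin called over input. Its gene overlaps Dok2, and the strand handling of the counts is not known. It had 316, 250 and 159 CPM with exon 5, 118, 132 and 63.0 CPM without exon 5, and 0, 10.9 and 0 CPM in the inputs. The 3 groups did not overlap. From 2 input counts the ratio was 56.4 (95% interval 15.54 to 466.7) with exon 5 and 23.2 (6.35 to 192.3) without it. The edgeR log2 fold changes were 5.87 (SE 1.33, adjusted p = 0.0187) and 4.66 (SE 1.30, adjusted p = 0.0393). The first call was lost without any 1 of the libraries with exon 5 and without replicate 2 of the other isoform, the second without any 1 of the 6 immunoprecipitates and under scaling by library size alone. Both were lost when only the groups compared were fitted. Over the 17 alternatives, adjusted p ran up to 0.119 for the first and 0.186 for the second.

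Xpo6, which carries actin with profilin, had 557, 417 and 562.5 CPM with exon 5 and 476, 421 and 435 CPM without it, against 0, 87.2 and 169 CPM in the inputs. No library overlapped, yet the adjusted p of 0.0959 and 0.121 (edgeR, log2 fold changes 2.59 and 2.39, SE 0.97 for both) missed the threshold. Xpot, the tRNA exportin, had 213, 230 and 216 CPM with exon 5, 277.5, 305 and 572 CPM without it and 138, 419.5 and 380 CPM in the inputs. Its inputs overlapped both isoforms, which did not overlap each other. Xpo4, Xpo5, Cse1l and Ranbp17 had their highest input in replicate 2, at 65.4 to 447 CPM, and none was called.

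In the importin beta family, Ipo13 (chr4:117893268-117915222), which works in both directions, was the called member. It had 42.8, 62.8 and 138.5 CPM with exon 5, 779, 80.0 and 86.0 CPM without exon 5, and 0 counts in every input. Replicate 1 without exon 5 was far above the other 5 immunoprecipitates. Against the floor of 3 counts per input library, Ipo13 was at least 4.40-fold higher with exon 5 and at least 17.0-fold higher without it. The bound without exon 5 fell to 4.49-fold without replicate 1, and the bound with exon 5 to 2.86-fold without replicate 3. The adjusted p values were 0.0388 with exon 5 and 0.0179 without it (edgeR). Of the 16 alternatives that gave a value, the first call passed in 5 and was lost without any 1 of the 6 immunoprecipitates, under scaling by library size alone and with limma-voom. The second passed in 13 and was lost without replicate 1 or replicate 3 without exon 5. Both were lost when only the groups compared were fitted.

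The other receptors of this family overlapped their inputs or missed the threshold. Tnpo1, the import receptor of many RNA-binding proteins, had 678, 604 and 431.5 CPM with exon 5, 285, 355 and 371.5 CPM without it and 174, 556 and 282 CPM in the inputs. The isoforms did not overlap, and the inputs overlapped both. Tnpo2, its close relative, had 446, 459 and 482 CPM with exon 5 and 509, 495 and 257 CPM without it. After TMM scaling these were above inputs of 90.1, 251 and 0 CPM. By library size alone, input replicate 2 (46 of 173342 counts) was above replicate 3 without exon 5 (367 of 1844970). Kpnb1, importin beta itself, had 573, 355 and 271 CPM with exon 5 and 301 to 441 CPM without it. Its inputs, at 793, 697 and 232.5 CPM, were higher in 2 of 3 than every immunoprecipitate, and the log2 fold changes of -0.52 (SE 0.65) and -0.56 (SE 0.65) were not called. Among the cargo adaptors, Kpna1 and Kpna3 stayed between 24.3 and 88.2 CPM in the immunoprecipitates, and Kpna4 had 103, 34.2 and 31.8 CPM with exon 5 and 48.2 to 61.6 CPM without it, against 1153, 169 and 0 CPM in the inputs.

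The remaining receptors were lower in level. Ipo5, Ipo7, Ipo11, Ranbp6, Tnpo3 and Ipo9 had 117 to 393 CPM over the 6 immunoprecipitates, and Ipo4 and Ipo8 had 44.2 to 203 CPM. Ipo4, Ipo9 and Ipo11 were above their inputs in every immunoprecipitate after TMM scaling. By library size alone, Ipo11 in input replicate 2 (31 of 173342 counts) was above replicate 3 with exon 5 (203 of 1328423). Ipo9 had log2 fold changes of 3.36 (SE 1.06, adjusted p = 0.0564, edgeR) with exon 5 and 3.10 (SE 1.05, adjusted p = 0.072) without it. Ipo8 had its highest value in an input, 275 CPM in replicate 3. Of the other members, Pom121 and Nup93 had 92.9 to 253 CPM, Ndc1 15.9 to 72.8 CPM, and Ranbp3, Ranbp9 and Ranbp10 22.9 to 220 CPM. None of them was called over input on totals.

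Over the whole set, 4 of 49 tested genes (8.16%) were called with exon 5 over input, all higher: Nup133, Ranbp2, Xpo7 and Ipo13. Across all 8342 genes tested, 9.17% were called in either direction, 8.31% higher and 0.863% lower, so the members' share was near the background. Without exon 5 over input, 3 of 49 (6.12%) were called, all higher (Ipo13, Nup133 and Xpo7), against a background of 8.7% in either direction, 8.12% higher and 0.587% lower. At an unadjusted p under 0.05 there were 13 members with exon 5 (26.5%, all genes 29.2%) and 11 without it (22.4%, all genes 28.5%). The median log2 fold change was 1.12 in the members and 1.03 in all genes with exon 5, and 0.85 and 1.03 without it. Which of the medians was higher turned in 4 of 17 alternatives with exon 5 and in 7 of 17 without it. Without input replicate 2 they were 2.79 and 2.68 with exon 5, and 3.09 and 2.69 without it. The value was above 0 for 44 and 43 of the 49. Under scaling by library size alone it was above 0 for 36 and 32, with all-gene medians of 0.39 and 0.37. All-gene medians above 0 mean that most genes were above 0 as well, in a share not given here. Both comparisons used the same 3 inputs. After TMM scaling, libraries did not overlap, with all 3 above all inputs, for 19 members with exon 5 (38.8%, all genes 33.1%) and for 20 without it (40.8%, all genes 35.9%), and for none in the other direction (all genes 3.4% and 3.43%). A fold over input sets RNA recovered with Chtop against RNA of the inputs and does not measure an mRNA's level in the cells. The lysates were of many cells, and levels in single cells were not measured.

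**Figure D2:**
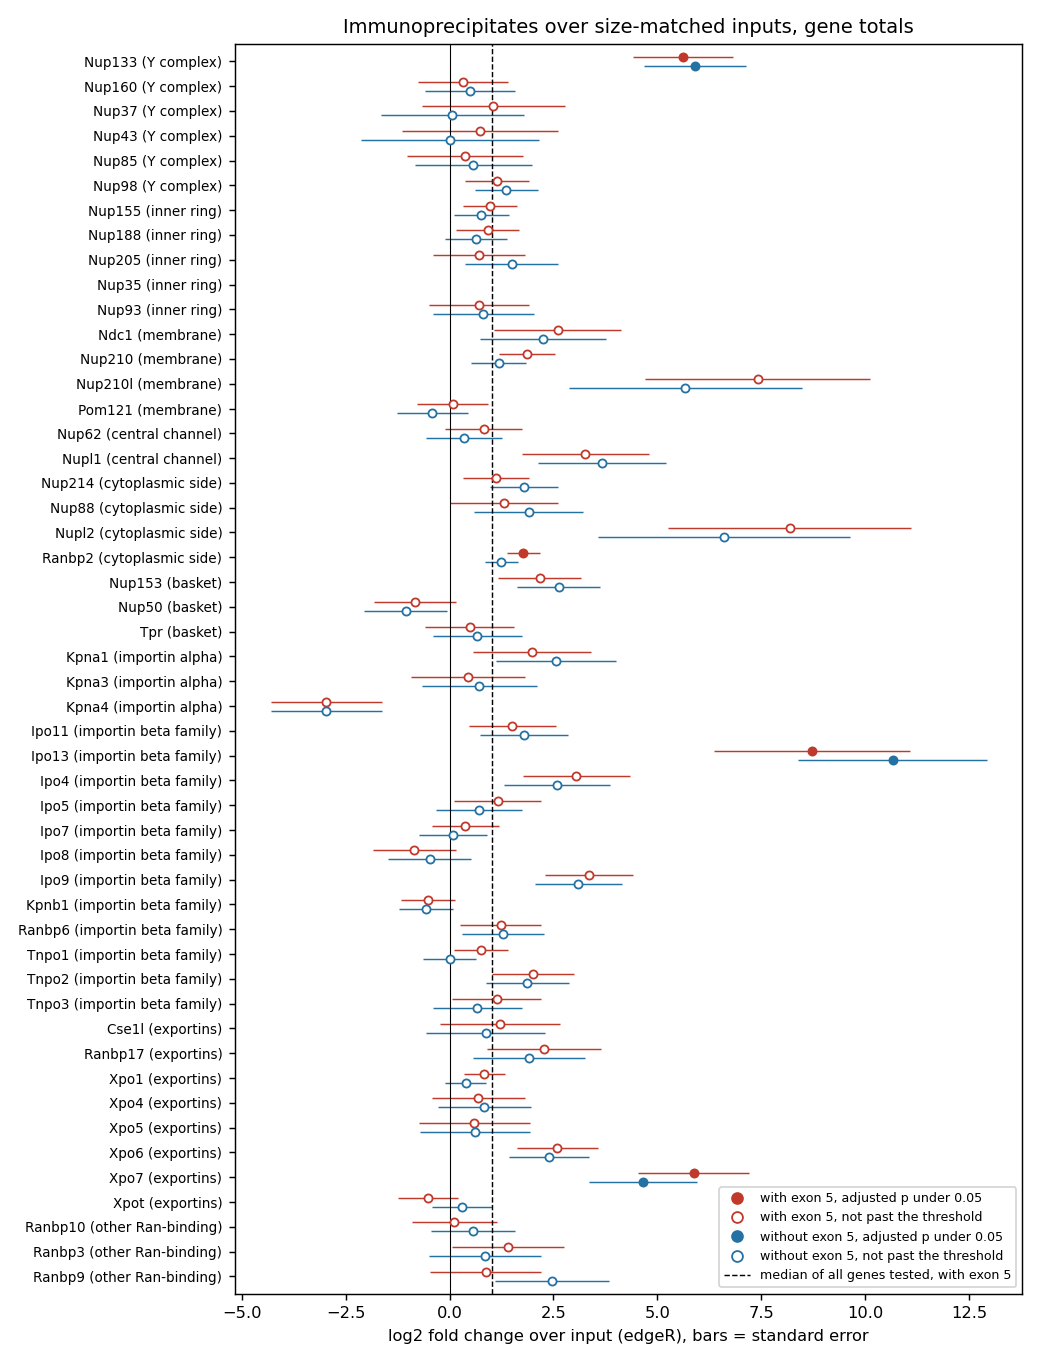
log2 fold change over input (horizontal axis, edgeR) of the 49 tested genes with exon 5 (red) and without exon 5 (blue), with bars of 1 standard error and filled points at an adjusted p under 0.05. The dashed line is the all-gene median of 1.03. The filled points are Nup133, Xpo7 and Ipo13 for both isoforms and Ranbp2 with exon 5. For Ipo13, Nupl2 and Nup210l, whose inputs held no count, the fitted value depends on the prior count and is no measured fold.

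By role, the summed level of the 12 members of the importin beta family was 3304 ± 522 CPM (SD, n = 3) with exon 5, 3054 ± 394 CPM without it and 1818 ± 728 CPM in the inputs. The 8 exportins summed to 3133 ± 524, 2692 ± 268 and 1595 ± 978 CPM, and the 4 cytoplasmic-side nucleoporins to 2960 ± 501, 2364 ± 330 and 907 ± 85.2 CPM. The 3 importin alpha genes were the one role with a higher mean in the inputs, at 155 ± 63.7, 185 ± 47.8 and 493 ± 594 CPM. That input mean rested on Kpna4 in input replicate 1.

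Longer genes had more counts. Across the 50 genes, log2 mean CPM in the immunoprecipitates correlated with log2 CDS length with Pearson's r of 0.71 and Spearman's rho of 0.65. These points share the same 6 libraries, and CPM are not divided by length. The members' CDS was long, with a median of 3018.5 bases (975 to 9159) against 1698.5 in all genes tested.

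Within the mRNAs, the counts lay mainly in the coding sequence (CDS). Summed over the members, the CDS held 80.4% ± 1.97 (SD, n = 3) of their counts with exon 5, 79.5% ± 5.06 without it and 69.4% ± 10.6 in the inputs. Over all genes the shares were 67.2% ± 1.22, 67.7% ± 1.11 and 46.7% ± 1.13. Per kilobase, the median log2 ratio of CDS to 3' UTR density was 0.45 in the 40 members counted in both parts and 0.45 in 7498 genes tested on totals. The CDS was denser in 24 of the 40 members and in 62.6% of those genes. Ranbp2, Xpot, Ranbp6, Nupl1 and Nup210l have no 3' UTR entry in the length table, so their CDS share has no contrast, and the 3' UTR entries of Tpr and Nup214 are 31 and 29 bases. The genes without an entry count as 100% CDS in the sums above and raise the members' share. Ranbp2 alone made up 18.2% of the members' counts with exon 5. The all-gene shares also include genes without a 3' UTR entry.

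**Figure D3:**
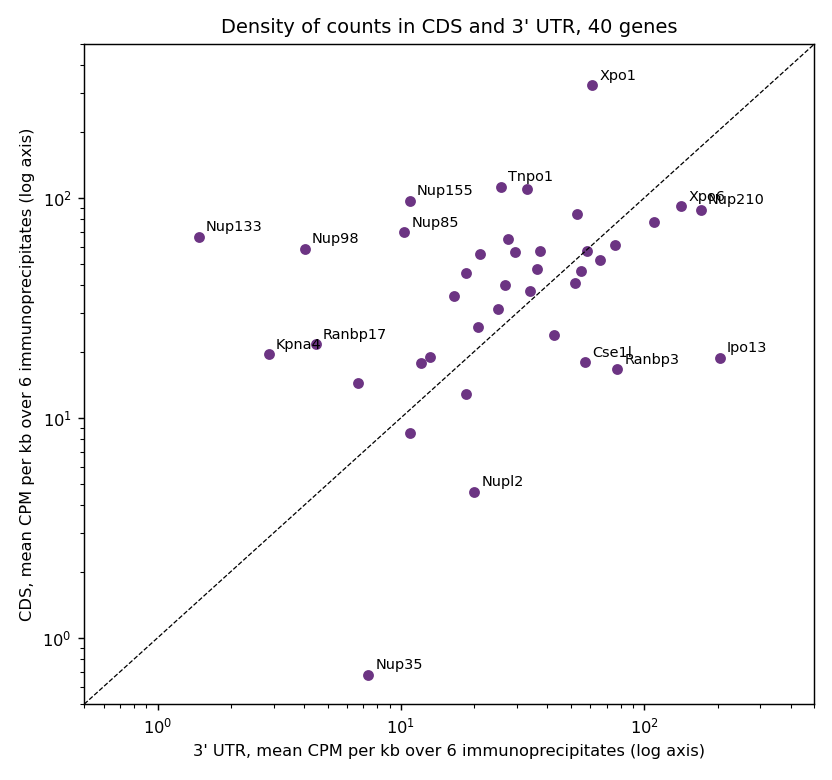
Mean CPM per kilobase over the 6 immunoprecipitates in the 3' UTR (horizontal log axis) and in the CDS (vertical log axis) for the 40 genes with counts in both parts. Each point is 1 gene and the dashed line marks equal density. Nup133 and Nup98 lie far above the line, and Ipo13, Ranbp3 and Cse1l below it.

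Members differed widely around that median. Nup133 held 99.5% ± 0.791 of its counts in the CDS with exon 5 and 97.5% ± 4.25 without it, with densities of 66.5 CPM per kilobase in the CDS and 1.48 in the 3' UTR. Nup98 held 98.1% ± 1.87 and 97.7% ± 1.39. Xpo1 was 86.4% ± 2.18 CDS with exon 5 and 80.2% ± 6.82 without it, at 325 CPM per kilobase in the CDS and 61.1 in the 3' UTR. The share was ranked among the 48 members with 100 or more counts summed over the immunoprecipitates. The 5 lowest by the mean of the library shares were Nup50, Kpna3, Ranbp3, Nupl2 and Ranbp10. Nup50 held 28.8% ± 19.0 (SD, n = 6) of its counts in the CDS, Kpna3 30.6% ± 23.6, Ranbp3 30.95% ± 13.0 and Ranbp10 40.7% ± 16.0. Nupl2 had counts in 5 immunoprecipitates, with CDS shares from 0% to 85% and a mean of 33.4%. Its 5 libraries together held 11.5% in the CDS, and 33.3% without replicate 3 with exon 5, which gave 149 of its 194 counts in the 3' UTR. Among the 40 members counted in both parts, the CDS was denser in 6 of 6 immunoprecipitates in 12 (30%, all genes 15.8%). Ranbp3, an export cofactor of Xpo1, was the one member denser in the 3' UTR in all 6 (2.5%, all genes 4%). These shares were described and not tested.

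Tested by part, both isoforms together over the inputs, 4 of 46 members (8.7%) were called in the CDS, all higher, against 19% of all 6376 genes (17.6% higher and 1.41% lower). The 4 were Nup133, Xpo7, Ranbp2 and Ipo13, the genes called on totals. An unadjusted p under 0.05 was reached by 9 members (19.6%, all genes 37.3%). In 15 (32.6%, all genes 35.1%) all 6 immunoprecipitates were above all inputs, and in none below (all genes 1.13%). The median log2 fold change was 1.14 in the members and 1.53 in all genes. Of the members, 39 of 46 were above 0 (24 of 46 under scaling by library size alone). Most genes were above 0 too, given their median. The 2 medians were 3.20 and 6.04 without input replicate 2, 0.22 and 0.69 with DESeq2, and 0.04 and 0.53 under scaling by library size alone. Nup133 had 1153 CDS counts in the immunoprecipitates and 0 in the inputs, at least 12.4-fold higher (adjusted p = 0.0112, edgeR). Xpo7 had 725 and 0, at least 8.12-fold higher (adjusted p = 0.0138). Both calls held in 15 of 15 alternatives. Ranbp2 (log2 fold change 1.39, SE 0.40, adjusted p = 0.0316) passed in 4 of 15, and its value moved to 0.11 under scaling by library size alone. Ipo13 had 321 and 0 CDS counts, at least 2.94-fold higher (adjusted p = 0.0317), and passed in 6 of 15. These 2 calls were each lost without any 1 of the 6 immunoprecipitates.

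In the 3' UTR, 3 of 33 members were called higher (Ipo9, Xpo6 and Ipo13) and 1 lower (Kpna4), 12.1% in all against 15.9% of 4984 genes. Higher calls made up 14.5% of all genes and lower calls 1.34%. An unadjusted p under 0.05 was reached by 11 members (33.3%, all genes 37%). In 7 (21.2%, all genes 21.9%) all 6 immunoprecipitates were above all inputs, and in none below (all genes 3.63%). The members' median log2 fold change was 2.24 and that of all genes 1.34. Of the members, 27 of 33 were above 0 (24 under scaling by library size alone and 22 with the scaling of gene totals). Here too most genes were above 0, given their median. Without input replicate 1 the medians were 1.87 and 1.84, and without input replicate 2 they were 6.04 and 5.27. Xpo6 had 125, 108 and 145 counts in its 3' UTR with exon 5, 78, 128 and 342 without it and 0, 3 and 0 in the inputs. The ratio was 28.7 (95% interval 9.79 to 139) and the edgeR log2 fold change 5.46 (SE 1.31, adjusted p = 0.0172). Ipo9 (chr1:135382312-135430499), an importin of histones and ribosomal proteins, had 71, 90 and 58 counts with exon 5, 34, 99 and 95 without it and 0, 1 and 0 in the inputs. Its ratio was 41.5 (95% interval 7.42 to 1645) and its log2 fold change 5.94 (SE 1.46, adjusted p = 0.0184). Both calls held in 15 of 15 alternatives.

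Kpna4 (chr3:69072221-69127092) went the other way in its 3' UTR. That part had 1111, 169 and 0 CPM in the inputs, 65.7, 8.56 and 3.74 CPM with exon 5 and 12.9, 20.0 and 8.40 CPM without it. Input replicates 1 and 2 were above all 6 immunoprecipitates, while replicate 3 had no count. The log2 fold change was -3.87 (SE 1.17, adjusted p = 0.0351, edgeR), between -4.79 and -1.43 over 15 alternatives with adjusted p from 0.00557 to 0.456. The smallest change, -1.43 at the adjusted p of 0.456, was that without input replicate 1. The call was also lost without any 1 library without exon 5, replicate 2 or replicate 3 with exon 5. In its CDS the counts were 7, 0 and 0 in the inputs against 199 in the immunoprecipitates, with a log2 fold change of 1.28 that was not called.

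The 3' UTR of Ipo13 rested on 1 library. It held 759, 24.7 and 35.7 CPM without exon 5 and 10.0, 34.2 and 0 CPM with exon 5, so 413 of 516 counts came from replicate 1 without exon 5. The bound over the inputs was 7.78-fold with that library and 1.13-fold without it, and the call (adjusted p = 0.0406, edgeR) was lost. It passed in 5 of 14 alternatives, and was also lost without replicate 3 of that isoform, replicates 1 and 2 with exon 5 or any 1 input, under scaling by library size alone and with the scaling of gene totals.

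**Figure D4:**
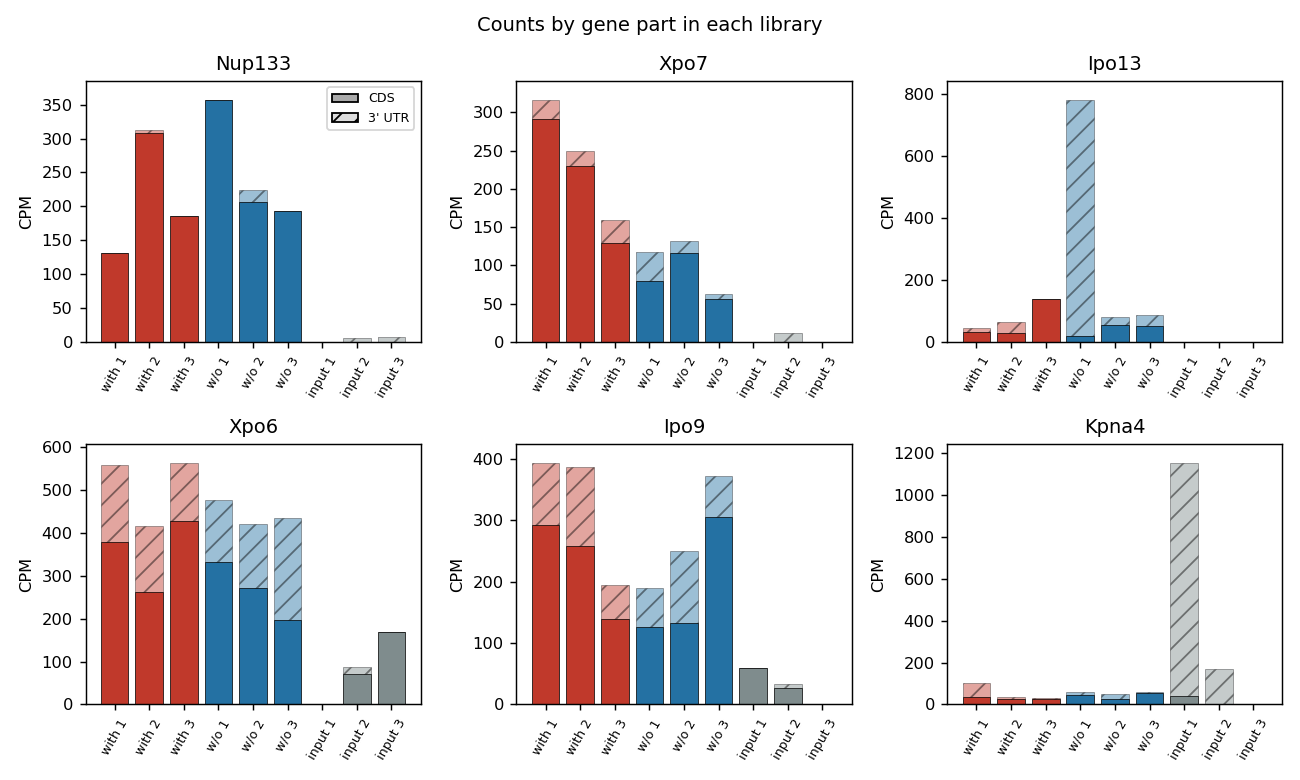
Counts by gene part in CPM (vertical axis) in each of the 9 libraries for 6 genes called over input on totals or in a part. Bars are the isoform with exon 5 (red), without exon 5 (blue, w/o) and inputs (grey), solid for the CDS and hatched for the 3' UTR. The CDS of Nup133 and Xpo7 has no input bar, the 3' UTR of Ipo13 stands out in 1 library, and that of Kpna4 in input replicate 1.

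The 5' UTR held little: 0.951% ± 0.448 of the members' counts with exon 5, 1.86% ± 0.523 without it and 3.07% ± 1.76 in the inputs, and 23 of the 50 have a 5' UTR entry.

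With and without exon 5 were then set against each other. No member of 49 was called on gene totals, and none reached an unadjusted p under 0.05 (edgeR); limma-voom called none either, and of all genes 0% were called and 1.11% had an unadjusted p under 0.05. The median log2 fold change was 0.14 in the members and -0.03 in all genes. After TMM scaling, libraries did not overlap for 5 members higher with exon 5 (10.2%, all genes 6.49%), Ranbp2, Xpo1, Xpo7, Ipo5 and Tnpo1, and for 5 lower (10.2%, all genes 7.43%), Nup214, Nup205, Xpot, Ipo11 and Ranbp9. Of these, the genes of Xpo7, Tnpo1, Nup214, Ipo11 and Ranbp9 overlap another protein-coding gene in the genome. The log2 fold changes of the most abundant were 0.53 (SE 0.38) for Ranbp2 and 0.45 (SE 0.49) for Xpo1, so each estimate was within 2 standard errors of 0.

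**Figure D5:**
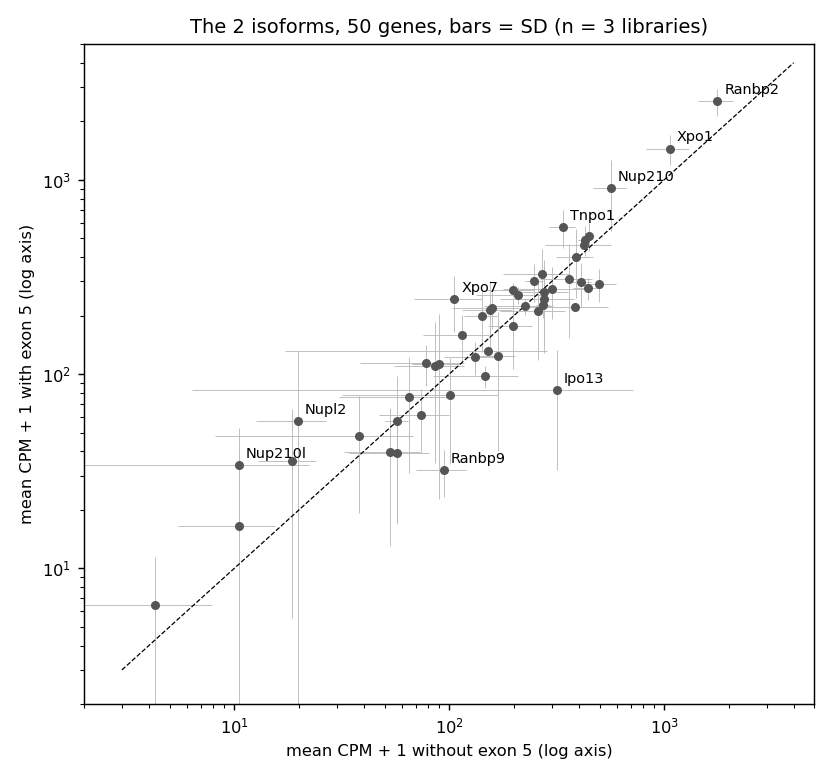
Mean CPM plus 1 with exon 5 (vertical log axis) against without exon 5 (horizontal log axis) for the 50 genes, with SD bars of 3 libraries each and a dashed line at equal level. Most genes lie along the line. Xpo7, Nupl2 and Nup210l lie above it, and Ranbp9 and Ipo13 below, with long bars for Ipo13, Nupl2 and Nup210l.

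The 5 largest differences on totals were those of Ipo13, Nup210l, Ranbp9, Nupl2 and Xpo7. For Ipo13 the log2 fold change was -1.94 (SE 1.14) and rested on the library described above. For Nup210l and Nupl2, at 1.74 (SE 1.52) and 1.57 (SE 1.58), the libraries overlapped. Ranbp9, a scaffold protein that binds Ran, had 22.9, 40.0 and 29.9 CPM with exon 5 and 77.2, 81.1 and 122 CPM without it. Its gene overlaps Nol7, and the strand handling of the counts is not known. Its libraries did not overlap, with a log2 fold change of -1.59 (SE 1.27). Xpo7 was at 1.21 (SE 0.97). The adjusted p was 1 for each of these 5 (edgeR).

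Within parts, no member was called between the isoforms in the CDS (46 tested) or the 3' UTR (33 tested), and all genes gave 0% in both. At an unadjusted p under 0.05 there were 0 members in the CDS (all genes 1.29%) and 1 in the 3' UTR (all genes 1.87%), Ipo13 (log2 fold change -4.26, SE 1.61, unadjusted p = 0.0167, adjusted p = 0.999, edgeR). Libraries did not overlap in the CDS for 5 members higher with exon 5 (10.9%, all genes 6.29%) and 5 lower (10.9%, all genes 7.2%). In the 3' UTR they did not overlap for Ranbp3, higher with exon 5 (3.03%, all genes 6.62%), and Nup153, lower (3.03%, all genes 6.32%). In the authors' deposited table, 38 of 41 classed members were in the class of both isoforms in the CDS (92.7%, all classed genes 84.3%), with Xpo7 classed to the isoform with exon 5 and Xpo4 and Ranbp9 to the isoform without it. In the 3' UTR the authors' deposited table put 16 of 19 in the class of both (84.2%, all classed genes 80%), Ranbp3 and Nup210 to the isoform with exon 5 and Ranbp17 to the isoform without it. In the 5' UTR it classed 2 members, 1 to both and Ipo7 to the isoform without exon 5. The header of these classes names a log2 fold change of 1.0 and the same direction in all replicates. The class of both is thus not 1 of equal counts. It held the 3' UTR of Ipo13 at -4.21 and the CDS of Nup210l at 1.83. The log2 fold changes in the authors' deposited table were 1.42 for the CDS of Xpo7, -1.33 for that of Ranbp9, -1.16 for that of Xpo4 and 1.44 for the 3' UTR of Nup210. None of these members passed the edgeR test.

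The division of counts between CDS and 3' UTR was also compared between the isoforms. Among 40 members with 10 or more counts in these parts in every immunoprecipitate, the CDS share did not overlap between isoforms in 2 that were higher with exon 5 (5%, all genes 4.56%) and 2 that were lower (5%, all genes 5.42%), shares near the background. Ranbp3 held 25.3%, 16.7% and 16.9% of these counts in the CDS with exon 5 and 46.1%, 38.9% and 41.8% without it. Xpo4, an exportin that also imports, held 21.1%, 42.8% and 35.7% with exon 5 and 68.6%, 56.8% and 66.0% without it. Ranbp17, a little-studied member of the exportin family, went the other way, at 87.3%, 90.3% and 85.7% with exon 5 and 66.7%, 55.3% and 65.8% without it, and Ranbp9 did likewise. These differences were described and not tested.

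Of 34 other genes of the pore and the transport cycle outside the rule, such as Ran, its regulators, the export factors and the lamins, 29 were named and 24 tested on totals. Lmnb1, a lamin of the nuclear envelope, was higher over input with each isoform and had no input count, 1 of 24 (4.17%) in each comparison against 8.31% and 8.12% of all genes, and none was lower. In the CDS, 4 of 22 were higher (Rae1, Ddx19a, Lmnb1 and Lmnb2, 18.2%; all genes 17.6%), and in the 3' UTR 4 of 17 (Gle1, Rangap1, Pcid2 and Lmnb1, 23.5%; all genes 14.5%), with none lower in either. Their median log2 fold change on totals was 1.11 with exon 5 and 1.54 without it, against 1.03 in all genes for both, and none was called between the isoforms.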

How the data were processed

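Per the file headers, the authors deposited unnormalized counts for 3 parts of each gene (5' UTR, CDS, 3' UTR) and for the gene total, and a table with log2 fold changes between the isoforms and a class per part. TopHat2, DESeq2 and the mm10 build are named in the submitters' processing notes, versions not given in the sources used here, and the same holds for read collapsing, counting and strand handling. The 3 inputs were matched to columns by line and primer. In all, 27 columns of per-sample values were not used here.

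Counts were tested in edgeR 4.0.16 by quasi-likelihood F-tests (robust, scaled by TMM, low counts removed by filterByExpr at 10 per library and 15 in total), R 4.3.3, all 9 libraries in 1 fit, Benjamini-Hochberg adjustment over all genes tested, threshold 0.05. The script was tested on simulated data. CPM used TMM-scaled library sizes of gene totals. With no input count, a fold is a lower bound against the mean CPM of 3 counts per input library. With 1 to 3, the ratio of summed counts over library sizes has an exact 95% interval, which covers counting error only and leaves out the spread between libraries. Coordinates are from RefSeq's GRCm38.p6, by symbol, for 50 of 50 genes, of which 13 overlap another protein-coding gene. The 13 are Nup43, Nup62, Nup88, Nup98, Nup214, Pom121, Tpr, Tnpo1, Tnpo3, Xpo7, Ipo11, Ranbp9 and Ranbp10. Replicates are independent cultures handled on different days, per the labels' protocols.

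The members and lists were chosen with earlier results of these data known. Named by rule were members called on totals, the 12 highest in the immunoprecipitates and 3 highest in the inputs, the 5 highest and 5 lowest in CDS share, and the 5 largest isoform differences. CDS shares were ranked among members with 100 or more counts summed over the immunoprecipitates. Members called in a part, those with libraries that did not overlap and those in the authors' isoform classes were singled out after their values were seen, and the rest are given by role. Alternatives were library size alone, DESeq2 1.42.0, no count filter, a replicate block, limma-voom 3.58.1, an offset for length, only the groups compared, the scaling of gene totals for parts, and each library left out.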

Additional observations from a re-analysis of the deposited data

How the results depend on the processing

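The 15 calls of members kept their direction in all 236 pairs of call and alternative, and passed the threshold in 157. Members called with exon 5 over input numbered 4, and 2 under library size alone, 7 with no filter, 0 in a fit of only the groups compared, and 0 to 22 with 1 library left out. Without exon 5 they numbered 3, and 5 with DESeq2, 6 with no filter, 7 with limma-voom, 0 with only the groups compared, and 0 to 23 with 1 library left out. The highest counts, 22 and 23, came without input replicate 2, the only input with counts for 16 of the members. In the main fit 49 members and 8342 genes were tested on totals. Counts over all genes follow below, but not for limma-voom over input, so its 7 members have no background here. How many genes were tested under each alternative is not given here. The members' counts under the alternatives are therefore not shares, and nothing is concluded from them about the members against all genes. In the CDS the count was 4, and 2 under library size alone, 2 with either replicate block and 2 to 19 with 1 library left out. In the 3' UTR it was 4, and 10 with DESeq2 and 2 to 12 with 1 library left out. The median CDS share of a member in the inputs was 71.8%, and 62.6% to 91.7% with 1 input left out. In the isoform comparisons, no alternative called a member. Over all genes, calls with and without exon 5 over input numbered 765 and 726, and 402 and 306 under library size alone, 1708 and 1654 with DESeq2, 1211 and 1184 with no filter, 29 and 18 with only the groups compared, and 58 to 2411 and 37 to 2354 with 1 library left out. In the CDS (1210) they were 335 under library size alone and 226 to 2407 with 1 left out, and in the 3' UTR (792) 1587 with DESeq2, 407 with the scaling of gene totals and 217 to 1534. Between the isoforms they numbered 0, and 4 with no filter, 2 with limma-voom and 2 with only the groups compared. The cause of these changes was not tested.

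Replicate numbers were shared across the groups. By the numbers in the titles, the deviations of same-numbered libraries correlated at -0.02 to 0.04. There, 3 of 9 libraries correlated best with their own number in both other groups. The column names number input replicates 1 and 2 the other way round. By those numbers, same-numbered libraries correlated at -0.001 to 0.039, and immunoprecipitates with their input at 0.014 to 0.037. The correlations were low and did not settle the pairing, and the main fit took the samples to share only a number. With the replicate block, 3 members were called with exon 5 and 2 without it, and all-gene counts were 273, 284, 506 (CDS) and 551 (3' UTR). Either block ended the calls of Xpo7 without exon 5 and Ipo13 with exon 5 over input, of Ranbp2 and Ipo13 in the CDS and of Kpna4 in the 3' UTR. With the input numbers of the column names, a block added after seeing the data, they were 296, 292, 503 and 514.

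Depth limited the inputs: 3 counts equalled 16.3 to 21.1 CPM there, and 3 members with no input count and 3 with 2 counts have folds known only as bounds or wide intervals.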
